A study of Mus musculus with 27 samples.

Results

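Naive pluripotency factors are the transcription factors and associated nuclear proteins that mark mESCs in the state of the early epiblast. The 10 genes Klf2, Klf4, Klf5, Esrrb, Tfcp2l1, Tbx3, Prdm14, Zfp42, Nr0b1 and Dppa3 were taken by their symbols from the gene annotation of the 3 RNA-seq count tables. They are 10 of the 27080 genes listed in at least one table, and all 10 were measured in every library and passed the filter on low counts in every comparison. All libraries came from J1, a single line of mESCs grown without feeder cells on gelatin in medium with serum and LIF. The cells carried a lentiviral shRNA, either a non-targeting control (shNT, 3 libraries) or one of a pair of shRNAs against Gas41 (shGas41-1, 3 libraries, and shGas41-2, 2 libraries). The KD cells were selected for infection and harvested after 8 days. Control shRNA cells also entered an embryoid body (EB) experiment, in which EB day 0 (2 libraries) stands for undifferentiated cells with LIF on gelatin and EB day 6 (2 libraries) for aggregates grown without LIF in low attachment wells. Gas41, which the tables list under its gene name Yeats4, is a subunit shared by the Tip60/p400 and SRCAP complexes, which place the histone variant H2A.Z on chromatin. The design asks how much of the naive program is lost when Gas41 is depleted, and how that loss compares with EB differentiation.

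In mESCs, LIF acts through its receptor and Stat3, and the naive factors lie downstream of it or beside it in a network that shares targets with Oct4 (Pou5f1), Sox2 and Nanog. Klf4 and Tfcp2l1 are known targets of LIF and Stat3 signalling, Tbx3 is linked to PI3K signalling, Klf2 is restrained by the MAPK pathway, and Esrrb is a target of Nanog and is repressed by Tcf7l1. Several of the factors can replace one another, and the naive set is lost as cells move towards the formative and primed epiblast while the core factors are still present. Serum and LIF cultures are mixtures, in which single cells differ in the amount of Zfp42 (Rex1), Esrrb, Dppa3 (Stella) and other naive genes.

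The libraries held between 59224537 and 81524773 counts, so that 3 counts, taken as the smallest measurable amount, corresponded to between 0.0373 and 0.0493 CPM. CPM here are counts scaled to a common library total, with one TMM scaling over all 12 libraries. Yeats4 lay between 50.9 and 61.2 CPM in shNT, between 3.46 and 5.10 CPM with shGas41-1 and between 7.95 and 8.80 CPM with shGas41-2, so the KD libraries matched their labels. The 7 ESC markers (Pou5f1, Sox2, Nanog, Sall4, Lin28a, Utf1 and Tdgf1) summed to between 3750 and 4411 CPM in the shNT and KD libraries. Of 7 fibroblast markers, Postn, Dcn and Lum were at 0 in every shNT and shGas41-2 library and Postn in every shGas41-1 library. The list summed to between 7.74 and 13.5 CPM in shNT, between 4.45 and 6.12 CPM with shGas41-1 and between 9.34 and 10.1 CPM with shGas41-2, most of it Thy1, which was at 9.67 CPM in shNT and fell with shGas41-1 (log2 fold change −1.10, FDR = 0.011). Replicate 3 of shGas41-1 stood apart from the other libraries of its group, with a chi-square of counts per degree of freedom over genes of 144 and 236 against replicates 1 and 2, where other pairs of replicates gave between 29.2 and 81.3. The methods of the study speak of biological repeats in all experiments, but the labels do not say whether replicates were separate cultures, so p-values measure the spread between these libraries, which may be technical. The libraries are bulk samples, in which fewer cells that express a gene and less RNA of that gene per cell cannot be told apart.

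Levels of different genes were compared only as CPM per kb of annotated exon. On this scale Zfp42 stood highest in shNT, at 745 ± 109 CPM per kb (SD, n = 3), and Dppa3 lowest, at 0.386 ± 0.106. Klf2 (156 ± 22.0), Esrrb (136 ± 25.5), Tfcp2l1 (86.1 ± 26.6), Klf4 (83.8 ± 17.1), Nr0b1 (74.7 ± 10.8) and Klf5 (72.0 ± 6.89) followed Zfp42 in this order, and each neighbouring pair among these 6 overlapped between libraries. Tbx3 (31.0 ± 5.61) and Prdm14 (13.6 ± 0.814) lay below them without overlap. With shGas41-1, Tfcp2l1 stood in place 7 instead of place 4, at 28.9 ± 10.1 CPM per kb, and Nr0b1 in place 3 instead of place 6, at 87.2 ± 13.6. With shGas41-2, Tfcp2l1 likewise stood in place 7 (48.0 ± 1.72, n = 2) and Nr0b1 in place 4 (92.0 ± 4.02). Zfp42 remained in place 1 and Dppa3 in place 10 in all 5 groups.

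**Figure D1:**
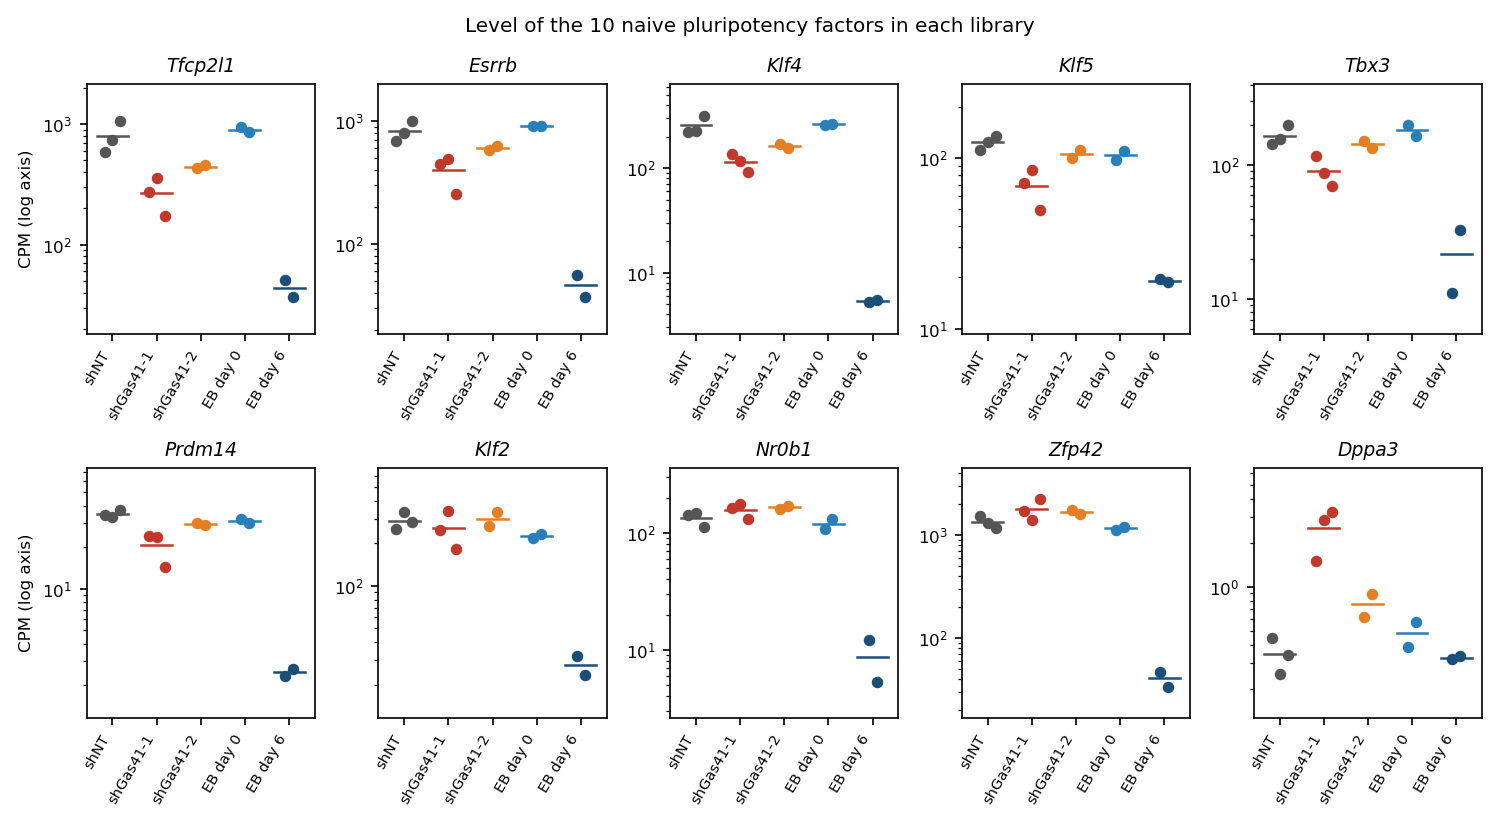
Level of each naive factor (CPM, log axis) in each of the 12 libraries, with 1 point per library and a line at the mean of each group. The shGas41-1 libraries lie below every shNT library for Tfcp2l1, Esrrb, Klf4, Klf5, Tbx3 and Prdm14 and above them for Dppa3, and at EB day 6 every gene except Dppa3 is well below EB day 0.

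RefSeq promoter sequences (GRCm38.p6) were found for 6 of the 10 genes: Tfcp2l1, Klf4, Zfp42, Klf2, Esrrb and Nr0b1. There was no entry for Klf5, Tbx3, Prdm14 and Dppa3. The 250 bases before the start site are given for a pair of genes that fell most with shGas41-1, Tfcp2l1 (chr1:118627695-118627944, plus strand) and Klf4 (chr4:55532476-55532725, minus strand), and for a pair that did not pass the test with either shRNA, Zfp42 (chr8:43307010-43307259, minus strand) and Klf2 (chr8:72318812-72319061, plus strand). Each is written 5′ to 3′ on the strand of its gene, and capitals mark matches on both strands to the motifs searched. These were the Klf motif GGGNGTGG, the GC box GGGCGG, the octamer ATGCAAAT and the TATA motif TATAAA. The Esrrb half-site AAGGTCA, the Stat motif TTCCNNGAA and the Tcf motif CTTTGA were also searched and had no match in the windows printed.
Tfcp2l1: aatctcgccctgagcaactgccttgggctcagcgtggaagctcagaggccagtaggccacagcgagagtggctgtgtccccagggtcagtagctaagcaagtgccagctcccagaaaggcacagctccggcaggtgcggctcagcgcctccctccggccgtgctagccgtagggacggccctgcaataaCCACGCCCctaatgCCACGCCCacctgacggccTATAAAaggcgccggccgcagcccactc
Klf4: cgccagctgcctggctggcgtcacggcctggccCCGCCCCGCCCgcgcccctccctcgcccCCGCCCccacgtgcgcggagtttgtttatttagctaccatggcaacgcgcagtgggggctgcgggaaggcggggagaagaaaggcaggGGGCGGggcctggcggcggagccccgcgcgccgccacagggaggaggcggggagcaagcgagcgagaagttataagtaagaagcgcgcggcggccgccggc
Zfp42: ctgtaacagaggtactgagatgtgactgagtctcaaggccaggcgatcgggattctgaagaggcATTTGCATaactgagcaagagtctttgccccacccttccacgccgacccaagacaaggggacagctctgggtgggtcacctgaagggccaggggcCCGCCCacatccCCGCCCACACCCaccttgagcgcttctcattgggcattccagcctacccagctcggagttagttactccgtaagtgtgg
Klf2: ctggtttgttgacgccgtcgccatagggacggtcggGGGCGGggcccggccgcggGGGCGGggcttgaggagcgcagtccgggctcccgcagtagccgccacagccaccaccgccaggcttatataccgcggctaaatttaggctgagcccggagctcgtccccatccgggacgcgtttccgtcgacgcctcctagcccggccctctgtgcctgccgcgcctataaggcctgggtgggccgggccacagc
The Tfcp2l1 promoter held the Klf motif at 2 places on the opposite strand, starting 61 and 47 bases before the start site, and a TATA motif 28 bases before it. The Klf4 promoter held 4 GC boxes, of which 2 overlap by 1 base. In the Zfp42 promoter there was 1 octamer at 186 bases, 2 GC boxes and 1 Klf motif at 75 bases, which overlaps the nearer GC box. The Klf2 promoter held 2 GC boxes and no Klf motif. Among 32851 mouse promoters of this length, 15.9% held the Klf motif, 32.7% a GC box, 1.6% the octamer and 12.4% the TATA motif. The Esrrb half-site, the Stat motif and the Tcf motif occurred in 4.1%, 4.1% and 13.8% of them. GC content was 65.2% for Tfcp2l1, 74.0% for Klf4, 58.4% for Zfp42 and 71.2% for Klf2, against a median of 52.4% over all promoters. These matches describe the letters of the windows and are not binding sites, and both the GC box and the Klf motif occurred among the genes that fell and among those that did not.

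Of the Klf genes in the set, Klf4 and Klf5 were lower with shGas41-1 and Klf2 showed no such difference. Klf4 (ENSMUSG00000003032, mm9 chr4:55540013-55545347, minus strand), a zinc finger factor that responds to LIF, was measured at 223, 230 and 317 CPM in shNT, at 136, 118 and 92.3 CPM with shGas41-1 and at 169 and 155 CPM with shGas41-2. All 5 KD libraries lay below all 3 shNT libraries. Klf4 fell 2.19-fold with shGas41-1 (log2 fold change −1.13, SE 0.19, FDR = 0.0055 in the quasi-likelihood test of edgeR) and 1.57-fold with shGas41-2 (log2 fold change −0.65, SE 0.16, FDR = 0.041). With the replicate number as a block in this test, Tfcp2l1 as well as Klf4 passed an FDR of 0.05 with both shRNAs. Without the block, Klf4 was the only naive factor to do so. The shGas41-2 call rested on single libraries, since the FDR was 0.076 without shNT replicate 2, 0.17 without shGas41-2 replicate 1 and 0.23 without shGas41-2 replicate 2. Exact matches of 50 bases or more to 6 other places in the genome cover 25.7% of the exon bases of Klf4, and how reads with several matches were counted is not given in the sources used here, so its level is uncertain to that extent.

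Klf5 (ENSMUSG00000005148, chr14:99697910-99712624, plus strand) acts beside Klf2 and Klf4 in self-renewal. It was measured at 112, 125 and 135 CPM in shNT, at 71.6, 85.0 and 49.5 CPM with shGas41-1 and at 101 and 111 CPM with shGas41-2. The shGas41-1 libraries were all below the shNT libraries, and the higher shGas41-2 library lay just under the lowest shNT library. The fall with shGas41-1 was 1.78-fold (log2 fold change −0.83, SE 0.19, FDR = 0.020), and the log2 fold change with shGas41-2 was −0.22 (FDR = 0.24). With 1 library left out, the shGas41-1 FDR was 0.071 without shNT replicate 2, 0.070 without shNT replicate 3 and 0.068 without shGas41-1 replicate 1. Klf2 (ENSMUSG00000055148, chr8:74842932-74845555, plus strand), which can compensate for loss of the other members, was measured at 251, 332 and 283 CPM in shNT, at 250, 340 and 184 CPM with shGas41-1 and at 266 and 335 CPM with shGas41-2. The 3 groups overlapped throughout. Its log2 fold change was −0.14 with shGas41-1 (95% confidence interval −0.64 to 0.35) and 0.07 with shGas41-2 (−0.26 to 0.40), and both signs turned when single libraries were left out.

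Tfcp2l1 and Esrrb, which are both able to sustain self-renewal of mESCs when supplied in excess, were the other large falls with shGas41-1. Tfcp2l1 (ENSMUSG00000026380, chr1:120524522-120581744, plus strand), a grainyhead-related factor downstream of Stat3, was measured at 586, 738 and 1069 CPM in shNT, at 272, 360 and 173 CPM with shGas41-1 and at 434 and 457 CPM with shGas41-2. It had the widest spread among the shNT libraries of the genes in the set relative to its level, and still all KD libraries were below all shNT libraries. The fall with shGas41-1 was 2.93-fold (log2 fold change −1.55, SE 0.29, FDR = 0.0092). With shGas41-2 the log2 fold change was −0.83 (SE 0.22) at an FDR of 0.055 in the quasi-likelihood test, and the FDR was 0.0024 in DESeq2 and 0.0047 in edgeR's exact test. Without shNT replicate 1 the shGas41-2 log2 fold change was −1.01 at an FDR of 5.3e-04, and without shNT replicate 3 it was −0.56 at an FDR of 0.026.

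Esrrb (ENSMUSG00000021255, chr12:87702067-87862578, plus strand), an orphan nuclear receptor, was measured at 689, 795 and 992 CPM in shNT, at 447, 490 and 254 CPM with shGas41-1 and at 579 and 631 CPM with shGas41-2. No KD library reached the lowest shNT library. Esrrb fell 2.05-fold with shGas41-1 (log2 fold change −1.04, SE 0.24, FDR = 0.020), close to the 2-fold limit. Its FDR was 0.062 without shNT replicate 2, 0.072 without shNT replicate 3 and 0.055 without shGas41-1 replicate 1, and its log2 fold change was −0.81 without shGas41-1 replicate 3. With shGas41-2 the log2 fold change was −0.44 (FDR = 0.10), and −0.55 at an FDR of 0.0064 without shNT replicate 1.

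Tbx3 and Prdm14 changed by less than 2-fold. Tbx3 (ENSMUSG00000018604, chr5:120120678-120134733, plus strand), a T-box factor, was measured at 143, 156 and 200 CPM in shNT, at 116, 87.7 and 70.0 CPM with shGas41-1 and at 151 and 135 CPM with shGas41-2. Only the shGas41-1 libraries were apart from shNT. Its log2 fold change was −0.85 with shGas41-1 (SE 0.20, FDR = 0.022) and −0.21 with shGas41-2 (FDR = 0.39), and the shGas41-1 FDR was 0.062 without shNT replicate 2 and 0.078 without shNT replicate 3. The exons of Tbx3 share 115 bases with Gm2301 on the opposite strand, whose reads cannot be told apart from its own with a kit that does not mark strand.

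Prdm14 (ENSMUSG00000042414, chr1:13103538-13117244, minus strand), which represses Fgf receptor signalling and de novo DNA methyltransferases, was measured at 34.4, 33.2 and 37.3 CPM in shNT, at 24.3, 23.6 and 14.4 CPM with shGas41-1 and at 29.9 and 28.9 CPM with shGas41-2. Both KD groups were below shNT in every library. The log2 fold change was −0.73 with shGas41-1 (SE 0.20, FDR = 0.034) and −0.24 with shGas41-2 (FDR = 0.18). The shGas41-1 FDR rose to between 0.060 and 0.10 without any 1 of the 3 shNT libraries or without shGas41-1 replicate 1. Among the methyltransferases, Dnmt3a was itself lower with shGas41-1 (log2 fold change −0.73, FDR = 0.030) and Dnmt3b did not pass the test (log2 fold change 0.27, FDR = 0.39).

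Zfp42 and Nr0b1 did not fall in either KD. Zfp42 (ENSMUSG00000051176, chr8:44380422-44392363, minus strand), which encodes Rex1 and is the standard reporter of the naive state, was measured at 1552, 1304 and 1166 CPM in shNT, at 1723, 1413 and 2230 CPM with shGas41-1 and at 1752 and 1596 CPM with shGas41-2. The shGas41-1 libraries overlapped shNT, and both shGas41-2 libraries were above it. The log2 fold change was 0.44 with shGas41-1 (95% confidence interval −0.0024 to 0.87, FDR = 0.14) and 0.33 with shGas41-2 (0.034 to 0.62, FDR = 0.14), so that neither interval reached a fall of the size seen for Klf4. Without shNT replicate 1 the shGas41-2 value was 0.45 at an FDR of 0.0091. A stretch of chromosome 15 without an annotated gene holds exact matches of 50 bases or more to 58.3% of the exon bases of Zfp42, and its level is uncertain for that reason.

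Nr0b1 (ENSMUSG00000025056, chrX:83437103-83441286, plus strand) encodes Dax1, a nuclear receptor without a DNA-binding domain that binds Oct4 and Esrrb. It was measured at 144, 149 and 113 CPM in shNT, at 164, 178 and 131 CPM with shGas41-1 and at 161 and 172 CPM with shGas41-2. As with Zfp42, the shGas41-1 libraries overlapped shNT and the shGas41-2 libraries lay above. Its log2 fold change was 0.24 with shGas41-1 (95% confidence interval −0.14 to 0.62, FDR = 0.33) and 0.31 with shGas41-2 (0.0084 to 0.61, FDR = 0.17).

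Dppa3 (ENSMUSG00000046323, chr6:122576428-122580290, plus strand) encodes Stella, a maternal factor that protects DNA methylation and marks a small part of serum-grown mESCs, germ cells and the cleavage embryo. It was measured at 0.442, 0.253 and 0.337 CPM in shNT (27, 18 and 25 counts), at 1.49, 2.85 and 3.22 CPM with shGas41-1 (113, 225 and 196 counts) and at 0.622 and 0.892 CPM with shGas41-2 (50 and 69 counts). All KD libraries were above all shNT libraries, opposite to the other genes of the set that changed. Dppa3 rose 7.44-fold with shGas41-1 (log2 fold change 2.90, SE 0.37, FDR = 0.0030). With shGas41-2 the log2 fold change was 1.15 (SE 0.35, FDR = 0.074), and it was 1.36 at an FDR of 0.025 without shNT replicate 1 and passed in edgeR's exact test (FDR = 0.021). Even after the rise its level, 2.83 ± 1.02 CPM per kb, was the lowest of the set. Matches of 50 bases or more at 4 other places cover 58.5% of its exon bases, and of the annotated genes there Dmgdh had 795 counts, Cacna1d 260, Gm6269 24 and Rhox3g-ps 1 over all 12 libraries.

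Markers of the early embryo and the germ line were measured beside Dppa3. Of 7 markers of 2-cell-like cells, 4 were listed and tested, and Zscan4c, Zscan4d and Zscan4f rose with shGas41-1 (log2 fold changes 2.47, 2.54 and 2.56, FDR = 0.045, 0.044 and 0.042). These near-identical copies can share reads, so their separate values are uncertain. With shGas41-2 none of the 4 passed in edgeR or in DESeq2, and 4 had an unadjusted p under 0.05 (28.3% of genes tested did). Their summed level ranged from 28.6 to 238 CPM in shNT, from 389 to 700 CPM with shGas41-1 and from 229 to 555 CPM with shGas41-2, with no marker at 0. Of 5 germ cell markers, Dazl rose with both shRNAs (log2 fold changes 1.47 and 1.85, FDR = 0.0068 and 0.0034) and Ddx4 by less than 2-fold (0.78 and 0.53, FDR = 0.0099 and 0.032), while Tfap2c fell with shGas41-1 (−0.63, FDR = 0.037) and Nanos3 and Prdm1 did not pass with either shRNA. Dazl was at 13.9 CPM with shGas41-1 and 18.2 CPM with shGas41-2, an order opposite to that of Dppa3. The germ cell list summed to between 65.6 and 83.8 CPM in shNT, between 77.2 and 81.4 CPM with shGas41-1 and between 76.6 and 77.4 CPM with shGas41-2. Whether such cells contribute to the level of Dppa3 was not tested.

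**Figure D2:**
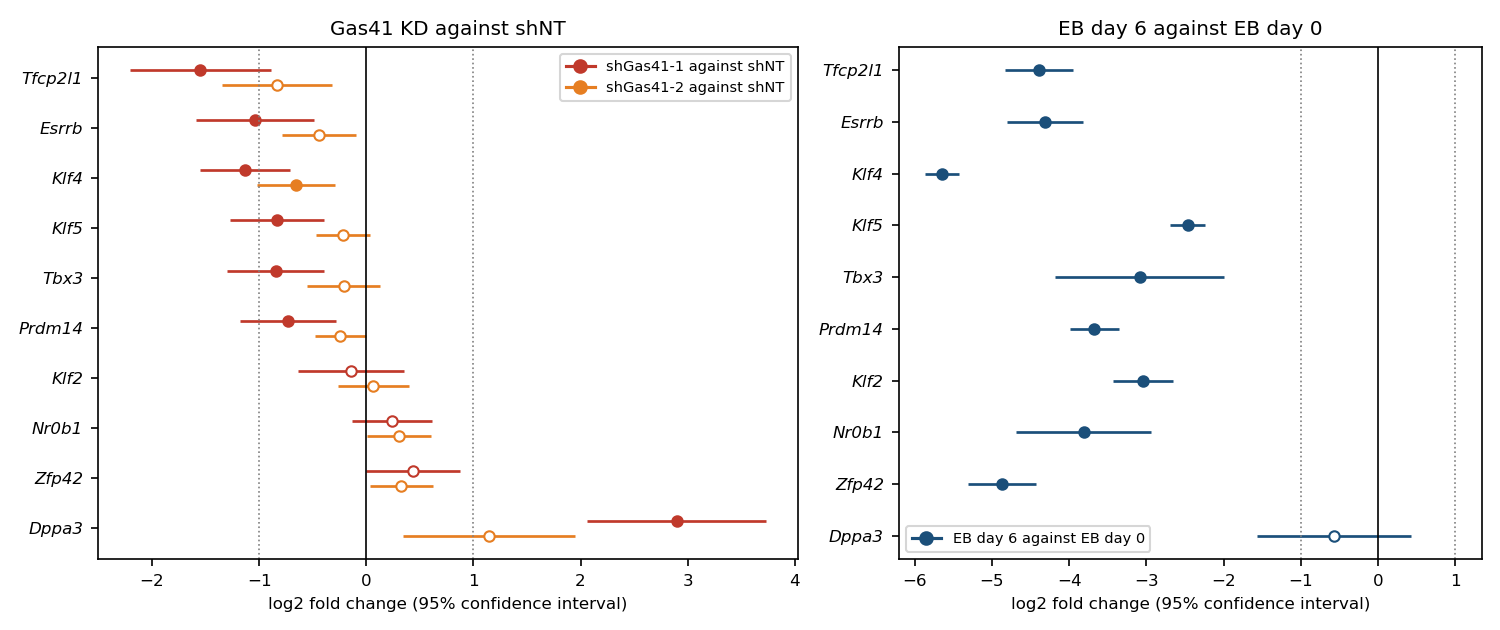
Log2 fold changes of the naive factors in the KDs against shNT (left) and at EB day 6 against EB day 0 (right), with 95% confidence intervals. Filled points have an FDR of 0.05 or less and dotted lines mark a 2-fold change. The shGas41-1 values lie farther from 0 than the shGas41-2 values for every gene except Nr0b1.

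Counted over the set, 3 of the 10 factors were called downregulated with shGas41-1 at a 2-fold change and an FDR of 0.05 or less (Tfcp2l1, Klf4 and Esrrb) and 1 was called upregulated (Dppa3), where 2.4% of the 18274 genes tested were called down and 7.9% up. At an FDR of 0.05 alone 6 of the 10 fell, against 7.73% of genes tested. The called falls were 2 (Tfcp2l1 and Klf4) without shNT replicate 2 or without shGas41-1 replicate 3, 1 (Tfcp2l1) without shNT replicate 3, and 4 without shGas41-1 replicate 2, while a test of the 2-fold change itself (glmTreat) called none of them. The shGas41-1 and shNT libraries did not overlap for 7 genes, of which 6 were lower (20.8% of genes tested were) and 1 higher (20.9%). With shGas41-2 no factor passed both limits in the quasi-likelihood test, where 0.869% of the 18405 genes tested were called down and 3.96% up. For this shRNA 1 factor (Klf4) fell at an FDR of 0.05 alone, where 3.97% of genes did, and 7 had an unadjusted p under 0.05, where 28.3% of genes did. DESeq2 likewise called none at 2-fold with shGas41-2. With the replicate number as a block, more of the set passed an FDR of 0.05 with this shRNA, as given below without a share over all genes. The libraries of shGas41-2 and shNT did not overlap for 8 of the 10 genes, of which 5 were lower (24.1% of all genes tested) and 3 higher (23.2%). The median log2 fold change of the 10 was −0.78 with shGas41-1 and −0.21 with shGas41-2, where the medians over all genes tested were 0.02 and −0.01. Both KDs were compared with the same 3 shNT libraries, so their values are not independent of each other.

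The shRNAs were compared directly in one fit over the 8 KD and shNT libraries. Tfcp2l1 (log2 fold change −0.72), Tbx3 (−0.63), Klf5 (−0.61), Esrrb (−0.59), Prdm14 (−0.49) and Klf4 (−0.47) were lower with shGas41-1 than with shGas41-2 in every library (12.3% of genes tested were), and Dppa3 (1.75) was higher (10.6% were). No factor reached an FDR of 0.05 in edgeR's quasi-likelihood test, where 0% of the 19146 genes did. These 7 had an unadjusted p under 0.05, as did 7.04% of genes tested. DESeq2 called Dppa3 (log2 fold change 1.73, FDR = 0.0037) and no other member. Yeats4 itself lay at 7.93% of the shNT level with shGas41-1 and at 15.3% with shGas41-2, and the part of this gap in the differences between the shRNAs was not tested.

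Replicates of one group also differed from each other in the naive factors. Among the shNT libraries, replicate 3 had the highest level of Klf4, Klf5, Esrrb, Tfcp2l1, Tbx3 and Prdm14 and the lowest level of Zfp42 and Nr0b1. Among the shGas41-1 libraries, replicate 3 had the lowest level of those 6 genes and of Klf2 and Nr0b1, and the highest level of Zfp42 and Dppa3. This is a description of 3 libraries in each group, with no test. As given above, shGas41-1 replicate 3 stood apart over all genes, and the part of this in the pattern was not tested. Without this library the 6 genes lower with shGas41-1 had log2 fold changes between −1.33 (Tfcp2l1) and −0.54 (Prdm14), with FDR between 0.0067 and 0.028, and Dppa3 had 2.67 (FDR = 0.0033).

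Ratios of counts within one library do not depend on how libraries are scaled. The pairs set factors that fell with shGas41-1 over Klf2, Zfp42 or Nr0b1, which did not. Lower ratios in the KD libraries therefore follow from the choice of pairs and add no separate evidence of a change. They are given as a description without a test. The log2 ratio of Klf4 to Klf2 counts was −0.17, −0.53 and 0.16 in shNT, −0.88, −1.52 and −0.99 with shGas41-1, and −0.66 and −1.11 with shGas41-2. All KD libraries lay below shNT for this ratio. Tfcp2l1 to Nr0b1 gave 2.03, 2.31 and 3.25 in shNT, 0.73, 1.01 and 0.41 with shGas41-1, and 1.43 and 1.41 with shGas41-2. Here each KD was apart from shNT and from the other KD. The ratio of Esrrb to Zfp42 was −1.17, −0.71 and −0.23 in shNT, −1.95, −1.53 and −3.14 with shGas41-1, and −1.60 and −1.34 with shGas41-2, again without overlap between KD and shNT. At EB day 6 the log2 ratio of Esrrb to Zfp42 (0.23 and 0.13) lay above that at EB day 0 (−0.33 and −0.39), and Tfcp2l1 to Nr0b1 (2.08 and 2.80 against 3.12 and 2.71) overlapped. The KD libraries and the EB day 6 libraries therefore lay on opposite sides of their controls for Esrrb to Zfp42. Klf5 to Klf2 was also higher at EB day 6 (−0.71 and −0.32) than at EB day 0 (−1.15 and −1.08).

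**Figure D3:**
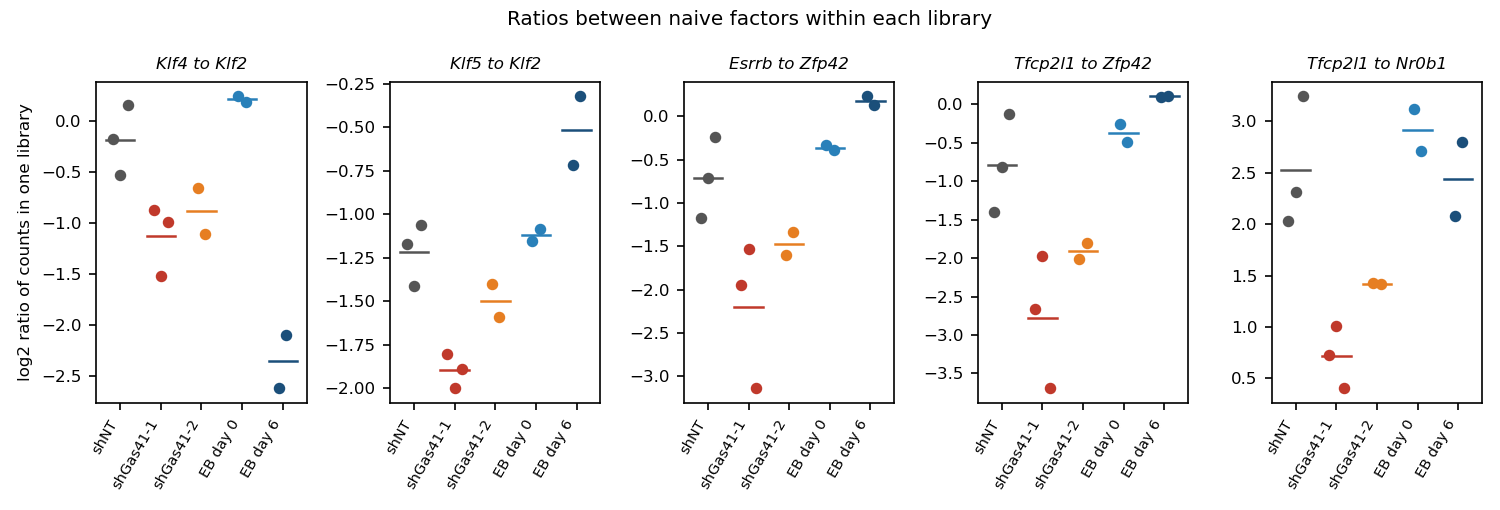
Log2 ratio of the counts of a pair of naive factors within each library, with 1 point per library and a line at the group mean, on an axis of its own for each ratio. For Klf4 to Klf2 the KD and EB day 6 libraries are below their controls, while for Esrrb to Zfp42 and Tfcp2l1 to Zfp42 the KD libraries are below and the EB day 6 libraries above.

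The makeup of the Klf genes followed from these values. Klf2 made up 49.7%, 54.9% and 45.7% of the summed CPM per kb of Klf2, Klf4 and Klf5 in shNT, 61.1%, 67.6% and 62.8% with shGas41-1, and 55.9% and 61.1% with shGas41-2. Klf4 made up 26.6%, 22.9% and 30.9% in shNT, 20.1%, 14.2% and 19.1% with shGas41-1, and 21.4% and 17.1% with shGas41-2. The share of Klf2 was higher and that of Klf4 lower in all 5 KD libraries than in any shNT library. By EB day 6 the sum of these 3 genes was 30.5 and 25.3 CPM per kb, against 259 and 277 at EB day 0. Klf4 was then left with 5.60% and 7.04% of it, and Klf5 held 37.3% and 43.0%, against 21.9% and 23.1% at EB day 0.

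**Figure D4:**
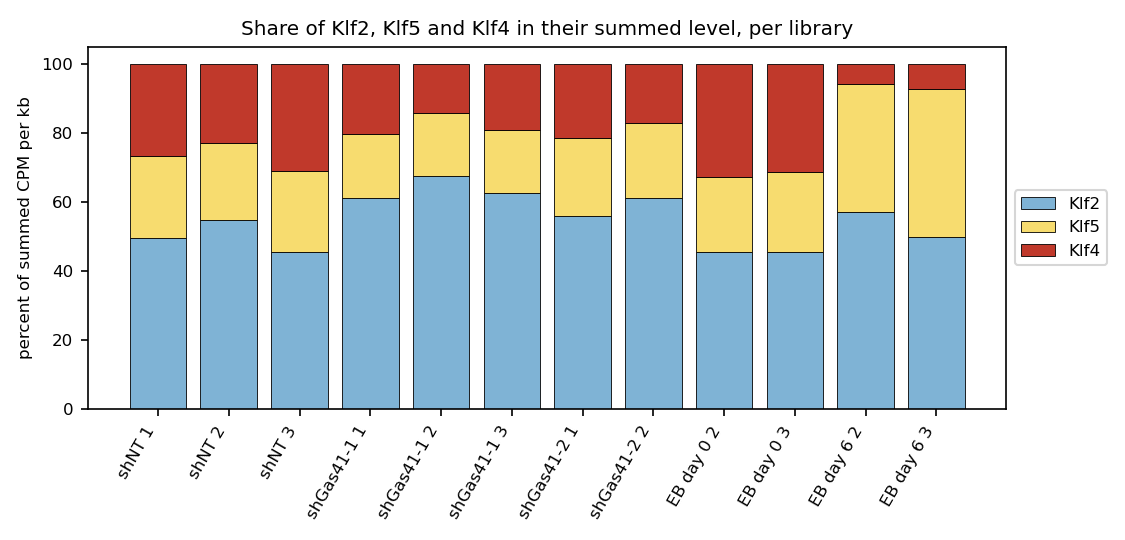
Share of Klf2, Klf5 and Klf4 in the sum of their CPM per kb (percent), with 1 bar per library, each labelled by group and replicate number. Klf4 has a smaller share in the KD libraries than in shNT and the smallest at EB day 6, where Klf5 has its largest.

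EB differentiation removed most of the naive set by day 6. With 2 libraries in each group, 9 of the 10 factors were called downregulated (14.7% of the 18287 genes tested were), and all 10 lay below EB day 0 in both libraries (40% of genes tested did). Klf4 fell most, from 259 and 266 CPM to 5.22 and 5.45 CPM, which is 49.9-fold (log2 fold change −5.64, SE 0.09, FDR = 1.2e-06). Zfp42 fell 29.2-fold, from 1137 and 1201 CPM to 47.4 and 33.9 CPM (log2 fold change −4.87, FDR = 9.2e-06). Tfcp2l1 (949 and 857 CPM to 50.8 and 36.5 CPM, log2 fold change −4.39) and Esrrb (904 and 917 CPM to 55.8 and 37.1 CPM, −4.31) fell to about the same degree, with overlapping confidence intervals.

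Nr0b1 fell from 109 and 131 CPM to 12.0 and 5.25 CPM (log2 fold change −3.81, SE 0.36). Prdm14 fell from 32.3 and 30.0 CPM to 2.33 and 2.63 CPM (−3.67, SE 0.13). Klf2 fell from 218 and 234 CPM to 32.1 and 23.3 CPM (−3.05, SE 0.16) and Klf5, with the smallest called fall, from 97.9 and 110 CPM to 19.6 and 18.7 CPM (−2.46, SE 0.09). Unlike the Gas41 KDs, EB differentiation thus lowered Zfp42, Nr0b1 and Klf2 together with the others. Tbx3 was uneven at EB day 6, at 11.1 and 32.6 CPM against 200 and 166 CPM at day 0 (log2 fold change −3.09, SE 0.45, FDR = 0.0015), and its FDR was 0.064 without EB day 0 replicate 3. Dppa3 was at 0.318 and 0.335 CPM against 0.388 and 0.576 CPM (log2 fold change −0.58, FDR = 0.27), both low levels. In these EB libraries the summed markers of mesoderm, primitive endoderm and trophoblast were higher than at day 0, and those of the neural list were lower. The neural list summed to between 197 and 203 CPM at day 6, against between 263 and 271 CPM at day 0. In it Tubb3 and Neurod1 fell (log2 fold changes −3.64 and −2.56), Nes rose (4.15) and Pax6 did not pass. The 6 mesoderm markers, each of which rose (30.5% of genes tested did), summed to between 1270 and 1880 CPM at day 6, against between 9.85 and 10.4 CPM at day 0. Of 7 primitive endoderm markers 6 rose, where 30.5% of genes tested did, and Sox7 fell. The sum of these markers went from between 7.74 and 8.50 CPM to between 101 and 282 CPM. Of 7 trophoblast markers 4 of the 6 tested rose, against the same 30.5% of genes tested, with a sum of 559 to 685 CPM at day 6 and 26.4 to 37.4 CPM at day 0. Most of the day 6 sum was Eomes, which is shared with the mesoderm list, at a mean of 568 CPM against 6.10 CPM at day 0. Cdx2, Hand1 and Gata3 rose to means of 22.3, 5.36 and 2.55 CPM, and Tfap2c and Ascl2 did not pass.

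Markers of other lineages were also measured in the KD libraries. Mesoderm markers summed to between 11.9 and 15.0 CPM in shNT, between 5.95 and 10.1 CPM with shGas41-1 and between 10.6 and 12.0 CPM with shGas41-2, and Eomes and Tbx6 fell with shGas41-1. Primitive endoderm markers summed to between 5.20 and 6.36 CPM in shNT, 7.04 and 10.8 CPM with shGas41-1 and 8.72 and 10.4 CPM with shGas41-2. Gata6 and, by less than 2-fold, Dab2 rose with shGas41-1, and Sox7 rose with shGas41-2. Trophoblast markers summed to between 36.8 and 54.9 CPM in shNT, 28.4 and 36.5 CPM with shGas41-1 and 31.7 and 35.9 CPM with shGas41-2. Gata3 rose with both shRNAs and Cdx2 with shGas41-1, both from below 1 CPM in shNT, and Tfap2c and Eomes fell with shGas41-1. Of 4 listed neural markers, whose sum was 286 to 292 CPM in shNT, 269 to 322 CPM with shGas41-1 and 343 to 358 CPM with shGas41-2, Pax6 rose with shGas41-1. Their sum with shGas41-2 was above every shNT library, and most of it was Tubb3, at 273 CPM in shNT and 333 CPM with shGas41-2 (log2 fold change 0.30, FDR = 0.055). No neural marker passed with shGas41-2 in the quasi-likelihood test, and DESeq2 passed 2. The other log2 fold changes with this shRNA were 1.17 for Pax6, 0.05 for Nes and −0.31 for Neurod1. No marker of these 4 lists was at 0 in the KD groups. Their part in the levels of the naive factors was not tested.

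The undifferentiated controls of both experiments, shNT and EB day 0, come from different tables and were set side by side. No naive factor passed an FDR of 0.05 between them in edgeR's quasi-likelihood test or in DESeq2, where 2.35% of the 18095 genes tested did in the former, and 1 factor, Klf2, had an unadjusted p under 0.05 (24.4% of genes did). The log2 difference of shNT over EB day 0 was 0.34 for Klf2 (95% confidence interval 0.055 to 0.63, FDR = 0.15) and between −0.50 and 0.24 for the other 9. Without shNT replicate 1 that of Klf2 was 0.43 at an FDR of 0.042, and without shNT replicate 3 that of Tfcp2l1 was −0.44 at an FDR of 0.037.

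The genes around the naive factors were taken from lists of pathway members. None of the 4 core factors passed with either shRNA in the quasi-likelihood test or in DESeq2, and 0 had an unadjusted p under 0.05. The log2 fold changes of Pou5f1 (Oct4), Sox2 and Nanog were 0.05, −0.28 and 0.09 with shGas41-1 and 0.15, −0.22 and 0.23 with shGas41-2, from 1304, 440 and 747 CPM in shNT. In the EB comparison Sox2 fell by 1.93 and Nanog by 1.22 on the log2 scale and Pou5f1 by 0.34 (FDR = 2.8e-04, 9.3e-04 and 0.045), all by less than the 9 naive factors. Sall4 did not pass.

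Of 20 other genes that are high in naive mESCs, 2 rose at least 2-fold with both shRNAs, Pramel7 and Pramel6, relatives of the PRAME family. The shares of all genes tested that did so were 7.9% with shGas41-1 and 3.96% with shGas41-2. Pramel7 was at 0.193 CPM in shNT, 1.94 CPM with shGas41-1 and 1.00 CPM with shGas41-2 (log2 fold changes 3.37 and 2.41, FDR = 0.0036 and 0.027). Pramel6 was at 0.178, 1.25 and 1.44 CPM (2.85 and 3.05, FDR = 0.0081 and 0.017). With shGas41-1 Nodal and Dppa2 also rose and Utf1 and Mybl2 fell, all by less than 2-fold, and the median over the 20 was 0.04. With shGas41-2 Nodal also rose by less than 2-fold and none fell. By EB day 6, 15 of the 18 tested were called down, where 14.7% of all genes tested were. Fgf4, Jam2, Spp1 and Tet2, named here after their values were seen, fell at EB day 6 with log2 fold changes between −6.05 and −3.85. In the KDs their log2 fold changes lay between −0.48 and 0.15 with no FDR of 0.05 or less, though Tet2 was near it with shGas41-1 (FDR = 0.052). Alpl, also named after its values were seen, lay below every shNT library in both KDs (−0.70 and −0.57, FDR = 0.059 and 0.054). It fell by 0.81 on the log2 scale at EB day 6. DESeq2 passed 8 of the 20 with shGas41-1 and 5 with shGas41-2, in either direction.

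Genes of LIF and Stat3 signalling fell with shGas41-1 for 4 of 9 members, none at 2-fold, where 7.73% of genes tested fell. These were Lifr, the LIF receptor (log2 fold change −0.62, FDR = 0.034), and the Stat3 targets Socs3 (−0.54, FDR = 0.039), Pim3 (−0.53, FDR = 0.028) and Junb (−0.94, FDR = 0.0084). Stat3 itself had a log2 fold change of −0.46 (FDR = 0.19), and the median over the 9 was −0.46, against 0.02 over all genes tested. With shGas41-2 none of the 9 passed in edgeR or in DESeq2, 0 had an unadjusted p under 0.05, and the median was −0.13. In the EB comparison 5 of the 9 were called down (14.7% of genes tested were), among them Socs3 (log2 fold change −4.28), Stat3 (−2.31) and Pim3 (−1.85), and Jak2 was called up.

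Of 13 repressors and regulators of the exit from the naive state, 1 fell with shGas41-1, near the 7.73% of all genes tested that did. This was Etv4, an Ets factor induced by Fgf signalling (log2 fold change −0.67, FDR = 0.021). Tcf7l1, the repressor of Esrrb and other naive genes, had log2 fold changes of 0.78 with shGas41-1 (FDR = 0.055) and 0.68 with shGas41-2 (FDR = 0.013), from 14.7 CPM in shNT to 25.0 and 23.5 CPM. The shGas41-1 libraries overlapped shNT. EB day 0, the other undifferentiated control, was at 20.8 CPM, above every shNT library (log2 difference of shNT over EB day 0 −0.51, FDR = 0.059). With shGas41-2 Rbpj also rose (0.49, FDR = 0.030). By EB day 6, 5 of the 13 were called down (14.7% of genes tested were), among them Tle2, Folr1 and Etv4, which fell by 3.44, 3.25 and 1.80 on the log2 scale. Tle2 was low already at EB day 0, at 1.07 CPM. In the other direction, Fnip1, Flcn, Tle3 and Tcf7l1 rose by less than 2-fold (0.93, 0.89, 0.60 and 0.51), each at an FDR of 0.05 or less, where 30.5% of genes tested rose.

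Of 13 formative and primed epiblast genes, Lef1, a partner of β-catenin, and Sox3, a SoxB1 factor, rose with both shRNAs. Lef1 was at 1.19 CPM in shNT, 6.05 CPM with shGas41-1 and 3.68 CPM with shGas41-2 (log2 fold changes 2.37 and 1.64, FDR = 0.0022 and 0.0041). Sox3 was at 1.24, 2.77 and 2.68 CPM (1.18 and 1.11, FDR = 0.037 and 0.028). Among all genes tested, 7.9% were called up with shGas41-1 and 3.96% with shGas41-2. Fgf5, the usual marker of the primed epiblast, rose with shGas41-1 from 0.114 to 0.471 CPM (2.08, FDR = 0.039). Dnmt3a and Tead2 fell with shGas41-1 (−0.73 and −0.86, FDR = 0.030 and 0.0094), where 7.73% of genes tested fell. Otx2, which drives the exit from the naive state, did not pass with either shRNA (−0.36 and −0.49, FDR = 0.15 and 0.094). At EB day 6 all 13 passed an FDR of 0.05 upwards and 12 were called up (16.6% of genes tested were), with a median log2 fold change of 2.98, against medians of 0.27 and 0.15 in the KDs.

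**Figure D5:**
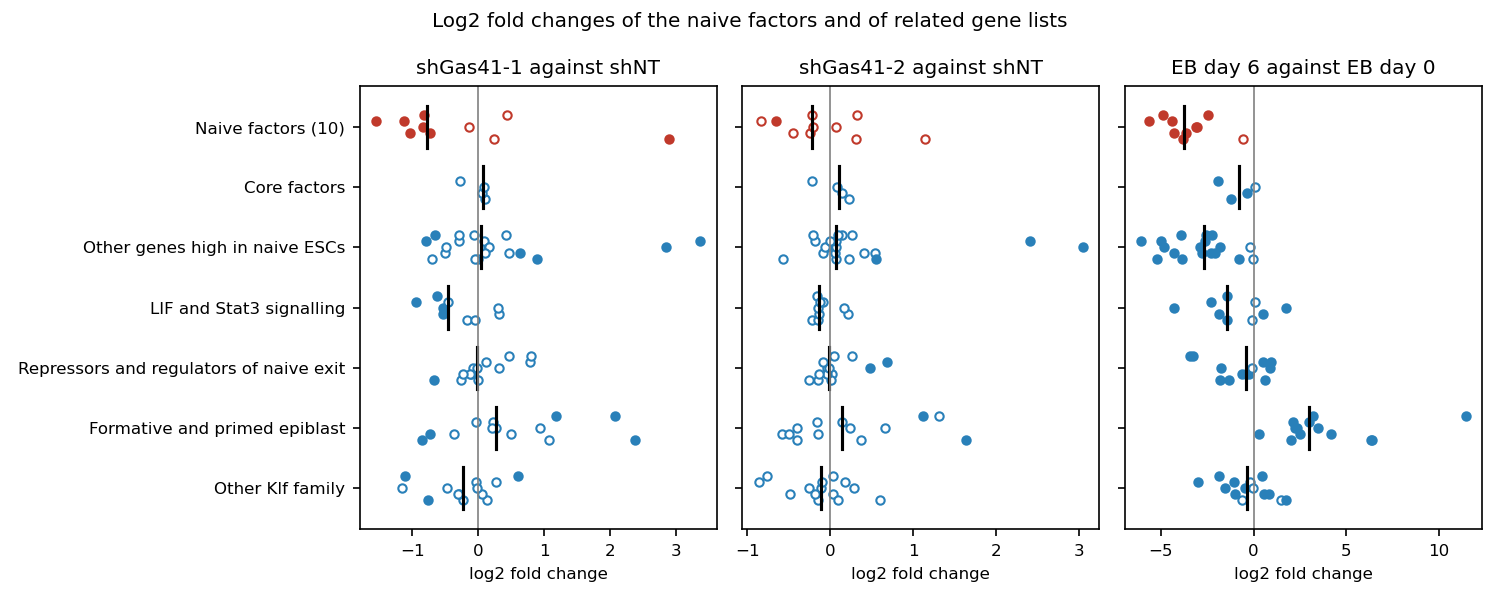
Log2 fold changes of the 10 naive factors (red) and of the genes of 6 related lists (blue) in each comparison, with 1 point per gene, filled where the FDR is 0.05 or less, and a bar at the median. The naive factors have a median of −0.78 in the first KD, −0.21 in the second and −3.74 in the EB comparison, while the core factors stay near 0 in the KDs.

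Among the 14 other Klf genes, Klf13 fell with shGas41-1, from 56.2 to 25.8 CPM (log2 fold change −1.10, FDR = 0.035), and had a log2 fold change of −0.75 with shGas41-2 (FDR = 0.082). Klf15 fell (−0.77, FDR = 0.023) and Klf6 rose (0.60, FDR = 0.020) by less than 2-fold with shGas41-1. Of all genes tested with shGas41-1, 2.4% were called down at 2-fold and 7.73% fell at an FDR of 0.05 alone. None of the 14 passed with shGas41-2 in the quasi-likelihood test, where 2 had an unadjusted p under 0.05 (28.3% of genes tested did). For this shRNA DESeq2 passed 1, Klf13, at an FDR of 0.05. At EB day 6, Klf17 and Klf3 fell by 2.99 and 1.84 on the log2 scale and Klf6 rose by 1.74. Of 13 paralogs of the other members, 9 were tested with shGas41-1 and 10 with shGas41-2. In edgeR's quasi-likelihood test only Esrrg, a relative of Esrrb, passed, with shGas41-1, at 0.396 CPM against 0.103 CPM (1.91, FDR = 0.041). For this shRNA 4 had an unadjusted p under 0.05 (35% of genes tested did) and DESeq2 passed 3, Esrrg, Grhl1 and Grhl2. With shGas41-2 none passed in edgeR or in DESeq2 and 3 of the 10 tested had an unadjusted p under 0.05, near the 28.3% of all genes tested that did. At EB day 6, Tbx5 and Esrrg rose by 2.86 and 2.85 and Grhl3 fell by 2.71 on the log2 scale.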

How the data were processed

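RNA-seq was measured in 12 libraries of J1 mESCs in 5 groups, and ChIP-seq samples of the series were not analysed here. Reads had been aligned by the authors with TopHat2 (2.0.10 in the submitters' processing notes) to the mm9 build and its transcriptome, then assigned to genes by htseq-count. The deposited counts are unnormalized whole numbers. Columns of the authors' own edgeR comparisons, with deposited log2 fold changes, p-values and FDR, were left aside. Groups and replicate numbers came from the labels. The shNT counts were identical in both KD tables.

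Counts were tested in R 4.3.3 with edgeR 4.0.16 (filterByExpr with a minimum count of 10 and a total of 15, TMM, glmQLFit and glmQLFTest, Benjamini-Hochberg adjustment over all genes tested), in each comparison over the libraries of its groups, except that the shRNAs were compared over 8 libraries. Calls required an FDR of at most 0.05 together with a log2 fold change of at least 1 in size. The SE was the absolute log2 fold change over the square root of F. Alternatives were DESeq2 1.42.0, edgeR's exact test, glmTreat, other scalings, filters and samples, the replicate number as a block, and each library left out in turn. Shares of all genes past a test are from the quasi-likelihood test without a block. Counts from DESeq2 and the other alternatives have no such share and cannot be set against one. The test was checked on simulated counts with known changes. CPM per kb used GENCODE exon lengths of mm9, and exons were matched to the genome with BLAST 2.17.0 (exact runs of 50 bases or more). Floors and intervals cover counting error and the spread between libraries only, since reads are not independent molecules.

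The members and the gene lists were chosen with earlier results of these data known. The text names all members, of each list the genes called with both shRNAs or otherwise the 3 with the largest changes at an FDR of 0.05 or less in any of the KD and EB comparisons, the 5 genes most like the members in pattern, and Yeats4. Single list genes beyond these were named after their values were seen.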

Additional observations from a re-analysis of the deposited data

How the results depend on the processing

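With shGas41-1, 3 factors were called down and 1 up. The count of falls was 6 at an FDR of 0.05 alone and 0 when glmTreat tested the 2-fold change itself, and it lay between 1 and 4 with single libraries left out. With shGas41-2, where 0 were called in either direction, 1 was called up in edgeR's exact test (Dppa3), 1 fell at an FDR of 0.05 alone (Klf4), and without single libraries between 0 and 1 were called up and between 0 and 1 down. DESeq2 called 1 factor up (Dppa3) between the shRNAs. The count of 9 falls at EB day 6 lay between 8 and 9 without single libraries.

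The log2 fold change of Klf2 changed sign without passing an FDR of 0.05. With shGas41-1 it lay between −0.39 and 0.038 without single libraries and was 0.040 in a fit over 7 libraries without shGas41-1 replicate 3, an alternative chosen after seeing the data. With shGas41-2 it was −0.016 when scaled by library size alone and lay between −0.11 and 0.22 without single libraries. Between the shRNAs, Zfp42 lay between −0.083 and 0.26 and Nr0b1 between −0.16 and 0.052 without single libraries. Between shNT and EB day 0, Klf4 lay between −0.20 and 0.045 and Tbx3 between −0.28 and 0.0075. The cause of these changes was not tested.

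The labels do not say whether libraries with the same replicate number shared more than that number. The correlation across genes of their deviations from the group means was −0.19, 0.21 and −0.69 for shGas41-1 and shNT and 0.57 and 0.52 for shGas41-2 and shNT. Pairs with different numbers gave between −0.74 and 0.66 for the former and between −0.57 and 0.30 for the latter. The shGas41-2 libraries are a pair whose deviations mirror each other, so 0.57 and 0.52 are not independent. A shared origin was not tested. With the replicate number as a block, 2 factors were called down with shGas41-1 (Klf4 and Tfcp2l1), 1 was called up with shGas41-2 (Dppa3, log2 fold change 1.14, FDR = 0.018), 9 fell at EB day 6, Nr0b1 was 0.056 between the shRNAs, and between shNT and EB day 0 Klf4 was 0.028 and Klf2 0.43 (FDR = 0.033). At an FDR of 0.05 alone the block left Klf4, Tfcp2l1, Esrrb, Klf5 and Prdm14 lower and Zfp42, Nr0b1 and Dppa3 higher with shGas41-2. The share of all genes that passed with the block is not given here. Whether the set passed more often than other genes under this model therefore cannot be read from these calls.

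With 2 or 3 libraries in a group, single libraries decide several calls near the limits. Depth limits Dppa3 most, with between 18 and 225 counts in a library, while the other factors had at least 154. Counts of Zfp42, Dppa3 and Klf4 are uncertain where their exons match other places in the genome.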

Other observations

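Apart from the 10 factors, the genes whose level over the 12 libraries was most like the mean of the set, by Pearson correlation of log2(CPM + 1), were Mras (r = 0.997), Inhbb (0.997), Socs3 (0.997), Laptm5 (0.995) and Kifc3 (0.995). The libraries of EB day 6 stand far from the rest and set most of these correlations, which are given as a description. The genes were chosen for likeness in the same libraries, KD libraries included, so their KD values below are no separate evidence. Inhbb encodes a subunit of activin and inhibin. Its mean was 265 CPM in shNT, 147 CPM with shGas41-1, 224 CPM with shGas41-2, 257 CPM at EB day 0 and 0.296 CPM at EB day 6. Its log2 fold change was −0.83 with shGas41-1 (quasi-likelihood test of edgeR, FDR = 0.0068), while shGas41-2 gave −0.23 (FDR = 0.16). Mras, a Ras-related GTPase, was at 135, 97.5, 132, 125 and 2.21 CPM in these groups and fell with shGas41-1 (−0.45, FDR = 0.049). Socs3, the feedback inhibitor of LIF signalling, was at 165, 112, 148, 170 and 8.89 CPM. Laptm5 (log2 fold changes −0.40 and 0.25 in the KDs) and Kifc3 (−0.23 and −0.07) did not pass with either shRNA, although both fell at EB day 6 (−8.01 and −3.56).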
